A study of Mus musculus with 20 samples.

Results

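Nkx2-3, Rabgap1l, Limd2, Tmem71, Mettl7a1 and Plppr3 are 6 genes whose RNA differed between leptin receptor positive (Lepr+) and negative (Lepr-) hematopoietic stem cells (HSC), with little difference between Lepr+ and Lepr- multipotent progenitors (MPP). They are 6 of the 55573 genes in each count file and of the 16509 that were tested, and all 6 passed the filter on low counts. They were picked from the Lepr contrasts in HSC and in MPP in these libraries, with no stated cut-off. The values in those contrasts are therefore given as a description, with no test. HSC against MPP averaged over Lepr status, a contrast that the choice did not use, was tested. It holds the same Lepr- HSC libraries, so it is not free of the choice.

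Bone marrow came from C57BL/6 mice of 7 to 9 weeks, with 2 mice pooled for each replicate. The labels name no transgene, deletion or treatment in any group. Cells without lineage markers that carried Sca-1 and c-Kit were sorted as CD150+CD48- cells, called HSC, and CD150-CD48- cells, called MPP. Each was divided by an antibody against surface Lepr, which gave 4 groups of 5 libraries: Lepr- HSC and Lepr+ HSC, then Lepr- MPP and Lepr+ MPP. Where 4 group values stand in a row below, they follow that order. A sample held 1000 to 8000 cells. Lepr status is thus a surface phenotype of cells in animals for which no manipulation is named. The files of 1 replicate number share a date in their names, in June for 3 numbers and in July for the other 2, in all 4 groups.

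Stem cells at the top of the blood hierarchy self-renew, whereas multipotent progenitors mostly do not, and both give rise to all blood lineages. Leptin, a hormone secreted by fat cells, signals through Lepr mainly by JAK2 and STAT3, and in marrow Lepr is best known as a marker of stromal cells that supply CXCL12 and stem cell factor. The 6 genes belong to no single pathway. Nkx2-3 is a homeobox transcription factor, Rabgap1l a GTPase-activating protein for Rab GTPases, and Limd2 a small LIM-domain protein. Tmem71 encodes a membrane protein, Mettl7a1 a methyltransferase-like protein of the endoplasmic reticulum and lipid droplets, and Plppr3 a membrane protein related to the lipid phosphate phosphatases.

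Total counts in genes ran from 9532993 to 31589794 a library, and the ranges of the 4 groups overlapped. Lepr RNA lay between 0 and 0.165 CPM in Lepr- HSC and between 0.0759 and 9.36 CPM in Lepr+ HSC (CPM, counts for every 1000000 of the scaled library size), and 1 Lepr+ HSC library lay within the Lepr- HSC range. In MPP it lay between 0 and 0.767 CPM in the Lepr- and between 0.261 and 38.8 CPM in the Lepr+ group, again with 1 Lepr+ library inside the Lepr- range. Slamf1, which encodes CD150, averaged 46.6 and 41.4 CPM in the Lepr- and Lepr+ HSC groups against 5.12 and 5.03 CPM in the MPP groups. Cd48, whose protein was to be absent from all groups, averaged 14.26, 10.51, 50.6 and 25.65 CPM in the 4 groups. The study gives separate pools of mice as replicates, and p-values measure the spread between libraries of a group, which come from separate pools. The main fit does not use the pairing of libraries of 1 replicate number across groups. A fit with the replicate number as a term, the replicate block, is given as an alternative.

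The promoter sequences of Nkx2-3, Rabgap1l and Plppr3 are shown because these genes stand for the 3 patterns described below: highest in Lepr+ HSC, highest in Lepr- HSC, and highest in MPP. They come from RefSeq on GRCm38.p6, which matched 5 of the 6 genes in 7 windows of 300 bases each, and Tmem71 was not among them. Each is read 5′ to 3′ on the gene's own strand and holds the bases upstream of the RefSeq start that lie outside annotated exons. Capitals mark CpG dinucleotides. Nkx2-3 lies at chr19:43612075-43612324 on the plus strand, Rabgap1l at chr1:160792947-160793106 on the minus strand and Plppr3 at chr10:79874722-79874884 on the minus strand.
Nkx2-3: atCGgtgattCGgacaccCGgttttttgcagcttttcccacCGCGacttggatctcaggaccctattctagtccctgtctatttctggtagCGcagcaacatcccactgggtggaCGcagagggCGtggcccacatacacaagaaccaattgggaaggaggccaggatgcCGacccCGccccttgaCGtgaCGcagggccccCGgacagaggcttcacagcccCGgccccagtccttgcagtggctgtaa
Rabgap1l: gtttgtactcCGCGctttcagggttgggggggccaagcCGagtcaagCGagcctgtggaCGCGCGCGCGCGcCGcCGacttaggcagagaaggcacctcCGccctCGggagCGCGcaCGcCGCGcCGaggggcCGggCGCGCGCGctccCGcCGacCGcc
Plppr3: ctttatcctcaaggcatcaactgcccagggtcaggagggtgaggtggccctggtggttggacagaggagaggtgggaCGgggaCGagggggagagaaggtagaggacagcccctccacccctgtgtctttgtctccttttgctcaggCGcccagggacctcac
The 3 stretches differed in composition. The Rabgap1l stretch held 28 CpG in 160 bases at 76.2% GC, the Nkx2-3 stretch 14 CpG in 250 bases at 60.0% GC, and the Plppr3 stretch 3 CpG in 163 bases at 62.0% GC. Over the full 300-base windows the counts were 38 CpG for Rabgap1l, 15 for Nkx2-3 and 23 for Plppr3, against a median of 7 CpG and 52.7% GC in all 32851 windows of the table.

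Motifs were searched on both strands of the 7 windows. The NKX2 core CACTTNA was in 0 of 7 and in 11.5% of all windows, and the STAT motif TTCNNNGAA in 0 of 7 and in 8.30% of all windows. AGATAA for GATA factors (11.2% of all windows) and CCGGAAG for ETS factors (8.86%) were in 0 of 7 as well. ACCACA for RUNX factors, which 16.8% of all windows hold, was in 1 of 7, a window of Limd2. These letters describe 300 bases a window and say nothing of whether a factor binds.

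Lepr- HSC were the group that stood apart for all 6 genes. Nkx2-3, Limd2, Tmem71, Mettl7a1 and Plppr3 were lower in each of the 5 Lepr- HSC libraries than in any of the other 15 libraries, and Rabgap1l was higher. Of all genes tested, 0.557% had Lepr- HSC wholly below or above the other 15 libraries (0.309% below, 0.248% above), and 1.62% had no overlap between Lepr- HSC and Lepr+ HSC. Since the choice of the genes used the HSC groups, nothing is read from the count of 6. Lepr- and Lepr+ MPP overlapped for all 6 (1.64% of all genes did not overlap there), Lepr+ HSC overlapped the 10 MPP libraries for all 6 (0.999% did not), and so did the 10 HSC and the 10 MPP libraries (0.612% did not). The gap was small for some genes: the nearest library outside Lepr- HSC differed by a ratio of 1.03 for Mettl7a1, 1.05 for Nkx2-3, 1.06 for Rabgap1l, 1.20 for Tmem71, 1.25 for Limd2 and 1.31 for Plppr3. In bulk samples such as these, a lower share of cells that express a gene and less of its RNA per cell cannot be told apart.

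**Figure D1:**
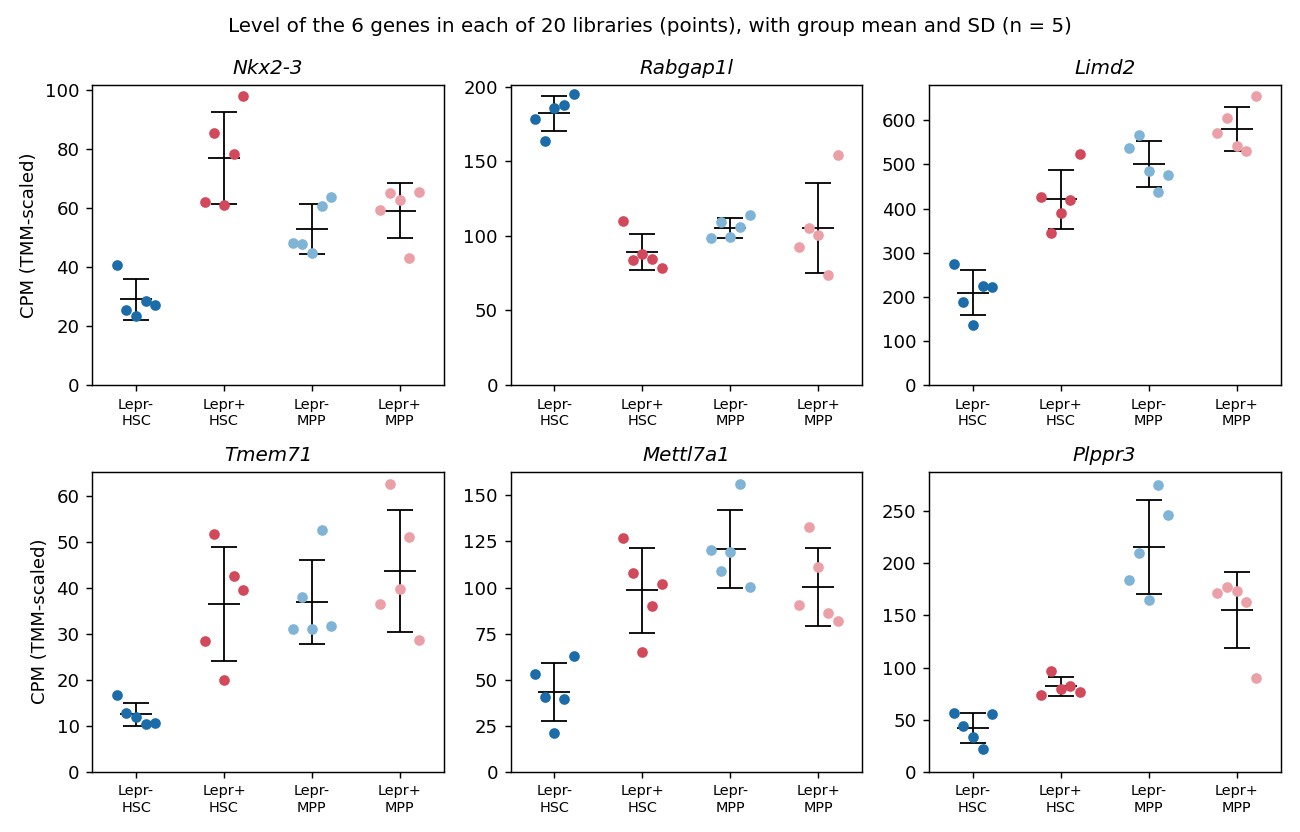
Level of each gene in CPM (vertical axis, from 0) in each of the 20 libraries, 1 panel a gene. Points are libraries in order of replicate number, bars are the mean and SD of 5 libraries; the Lepr- HSC points lie below all others in 5 panels and above all others for Rabgap1l.

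Nkx2-3 (ENSMUSG00000044220.13, chr19:43612325-43615892, plus strand, GRCm38) is a homeobox factor best known for the patterning of spleen and gut-associated lymphoid tissue. In Lepr- HSC replicates 1 to 5 it stood at 40.76, 25.54, 23.24, 28.36 and 27.11 CPM. In Lepr+ HSC it stood at 62.08, 85.44, 60.85, 78.01 and 97.77 CPM. The groups did not overlap, and Lepr+ HSC was the group with the highest mean, 76.8 ± 15.7 CPM (SD, n = 5). Lepr- MPP held 47.91, 47.58, 44.57, 60.53 and 63.57 CPM, and Lepr+ MPP 59.27, 65.03, 62.48, 42.85 and 65.35 CPM. The means of both MPP groups lay between those of the HSC groups, and the MPP groups overlapped each other. The fitted log2 fold change of Lepr+ over Lepr- was 1.40 ± 0.20 (SE) in HSC, a 2.65-fold difference, and 0.16 ± 0.20 in MPP. In order of the means, Lepr- HSC came before Lepr- MPP, Lepr+ MPP and Lepr+ HSC, and the 3 upper neighbours overlapped in turn. The other Nkx2 genes gave next to no counts: Nkx2-1, Nkx2-6 and Nkx2-9 had 0 in the 20 libraries together, Nkx2-2 and Nkx2-4 had 2 each and Nkx2-5 had 3, whereas Nkx2-3 had 329 to 2097 in each library.

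Rabgap1l (ENSMUSG00000026721.16, chr1:160219174-160793211, minus strand) carries a TBC domain, the part of such proteins that switches Rab GTPases of membrane traffic to their inactive form. It was the only gene of the 6 that was lower in Lepr+ HSC. Its levels were 178.5, 163.5, 185.3, 187.5 and 195.0 CPM in Lepr- HSC replicates 1 to 5. They were 109.6, 84.1, 88.03, 84.15 and 78.43 CPM in Lepr+ HSC. The lowest Lepr- HSC library was thus well above the highest Lepr+ HSC library. In Lepr- MPP the gene had 98.35, 109.2, 99.04, 105.7 and 113.8 CPM, and in Lepr+ MPP 92.48, 105.4, 100.2, 73.72 and 154.4 CPM. The MPP groups had almost the same mean, 105.2 ± 6.62 and 105.3 ± 30.01 CPM, and the wide spread of Lepr+ MPP came from replicates 4 and 5. The log2 fold change of Lepr+ over Lepr- was -1.03 ± 0.17 in HSC, 2.05-fold lower, and 0.00 ± 0.16 in MPP. The 3 lower groups, Lepr+ HSC, Lepr- MPP and Lepr+ MPP, overlapped with each other. Rabgap1, the closest relative, had means of 37.7 ± 21.9, 47.3 ± 22.7, 62.8 ± 23.9 and 61.1 ± 27.2 CPM in the 4 groups, and its Lepr contrast in HSC did not pass (log2 fold change 0.33 ± 0.43, edgeR adjusted p = 1.0).

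Limd2 (ENSMUSG00000040699.13, chr11:106156256-106160860, minus strand) encodes a LIM-domain protein reported to bind integrin-linked kinase. In Lepr- HSC it measured 274.3, 187.8, 135.7, 225.6 and 223.1 CPM, and in Lepr+ HSC 426.1, 344.1, 389.6, 418.5 and 524.8 CPM. The HSC groups did not overlap. In Lepr- MPP it measured 538.2, 567.0, 485.1, 437.6 and 476.1 CPM, and in Lepr+ MPP 571.4, 605.5, 542.5, 529.9 and 654.3 CPM. Lepr+ was higher in 5 of 5 same-numbered pairs of HSC and in 5 of 5 of MPP. The sizes differed: the log2 fold change was 1.01 ± 0.17 in HSC, 2.01-fold, and 0.21 ± 0.17 in MPP. The means rose from 209.3 ± 51.4 CPM in Lepr- HSC through 420.6 ± 66.5 in Lepr+ HSC and 500.8 ± 51.5 in Lepr- MPP to 580.7 ± 50.4 CPM in Lepr+ MPP, with overlap between each neighbouring pair above the first step. The related Limd1 varied little, with group means from 124.8 to 145.7 CPM.

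Tmem71 (ENSMUSG00000036944.6, chr15:66526212-66561103, minus strand) had the largest fold difference between the HSC groups of the 6 and the lowest counts, 122 to 1670 a library. It stood at 16.65, 12.86, 11.94, 10.45 and 10.55 CPM in Lepr- HSC and at 28.49, 51.74, 20.05, 42.49 and 39.42 CPM in Lepr+ HSC. The Lepr- HSC libraries were close together, and the Lepr+ HSC libraries, all higher, were spread widely. Lepr- MPP gave 31.1, 38.07, 31.07, 52.44 and 31.68 CPM, and Lepr+ MPP 36.5, 62.59, 39.75, 50.98 and 28.57 CPM. Lepr+ HSC and both MPP groups overlapped in part, with Lepr+ HSC replicates 1 and 3 below every MPP library. The means of Lepr+ HSC, Lepr- MPP and Lepr+ MPP were 36.4 ± 12.4, 36.9 ± 9.19 and 43.7 ± 13.3 CPM, against 12.5 ± 2.53 CPM in Lepr- HSC. The log2 fold change of Lepr+ over Lepr- was 1.54 ± 0.28 in HSC, 2.91-fold, and 0.25 ± 0.27 in MPP.

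Mettl7a1 (ENSMUSG00000054619.7, chr15:100304140-100328662, plus strand) belongs to a family of methyltransferase-like proteins found at lipid droplets. It measured 52.81, 40.75, 21.03, 39.49 and 62.95 CPM in Lepr- HSC and 126.8, 108.1, 65.14, 89.92 and 102.0 CPM in Lepr+ HSC. Replicate 3 was the lowest of both groups, and the nearest libraries of the 2 groups, 62.95 and 65.14 CPM, were close without overlapping. In Lepr- MPP it measured 120.2, 108.7, 119.2, 156.1 and 100.1 CPM, and in Lepr+ MPP 90.43, 132.6, 110.9, 86.35 and 81.78 CPM. Here the lean in MPP was opposite to that in HSC: Lepr+ was higher in 5 of 5 HSC pairs and in 1 of 5 MPP pairs, with log2 fold changes of 1.18 ± 0.25 (2.27-fold) and -0.27 ± 0.24. The group means were 43.4 ± 15.8, 98.4 ± 22.9, 120.9 ± 21.4 and 100.4 ± 21.1 CPM, and all groups but Lepr- HSC overlapped. Of the 2736 distinct stretches of 50 bases in its transcripts, 17.2% also occur in other genes, mostly its neighbours Mettl7a2, Mettl7a3 and Methig1. These had 4, 1 and 0 counts in the 20 libraries together, but reads from shared stretches could be placed in more than 1 gene, so the level of Mettl7a1 is uncertain to that extent.

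Plppr3 (ENSMUSG00000035835.14, chr10:79860475-79874634, minus strand) is related to the lipid phosphate phosphatases, lacks their catalytic activity and is known mainly from neurons, where it takes part in the growth of processes. Among the 6 it was the gene with the widest distance between HSC and MPP. Levels were 56.22, 44.12, 33.19, 21.59 and 55.04 CPM in Lepr- HSC and 73.44, 96.85, 79.45, 82.63 and 76.85 CPM in Lepr+ HSC. The Lepr+ HSC libraries were narrowly grouped and all above Lepr- HSC. Lepr- MPP held 183.6, 209.8, 164.8, 275.3 and 246.6 CPM, and Lepr+ MPP 172.0, 177.2, 173.8, 163.1 and 89.88 CPM. Replicate 5 of Lepr+ MPP fell among the Lepr+ HSC libraries, and the other 9 MPP libraries were above all 10 HSC libraries. As with Mettl7a1, the lean was opposite in the 2 populations, with log2 fold changes of Lepr+ over Lepr- of 0.96 ± 0.24 in HSC (1.95-fold, 5 of 5 pairs higher) and -0.48 ± 0.24 in MPP (1 of 5 pairs higher). Group means rose from 42.03 ± 14.76 CPM in Lepr- HSC through 81.8 ± 9.04 in Lepr+ HSC and 155.2 ± 36.9 in Lepr+ MPP to 216.0 ± 45.2 CPM in Lepr- MPP, and the upper 3 overlapped with their neighbours. The other family members were low, with 628 counts for Plppr2, 40 for Plppr4, 1 for Plppr1 and 0 for Plppr5 over the 20 libraries.

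The HSC groups did not overlap for any of the 6 genes. The Lepr difference in HSC therefore had to keep its direction within the libraries of each month, and nothing is read from that. On the log2 scale it was 1.29 in June and 1.64 in July for Nkx2-3, -1.02 and -1.02 for Rabgap1l, 1.09 and 0.92 for Limd2, 1.17 and 2.05 for Tmem71, 1.09 and 1.34 for Mettl7a1, and 0.67 and 1.48 for Plppr3. Plppr3 and Tmem71 thus had the largest difference between the months. In MPP the values ran from -0.46 for Plppr3 to 0.25 for Nkx2-3 in June and from -0.51 for Plppr3 to 0.33 for Tmem71 in July.

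Levels of different genes can be compared only per length, taken here as all annotated exon bases of a gene joined. The transcripts present can be shorter than that, which would make a level too low, so the ranks are approximate. On the scale of CPM per kilobase of exon, averaged over the 20 libraries, Limd2 was at 115 and Mettl7a1 at 34.98, Plppr3 at 28.4, Nkx2-3 at 25.8, Tmem71 at 10.8 and Rabgap1l at 5.18. Among all genes tested Limd2 lay at percentile 97.2 of this level, and Rabgap1l, whose exons cover 23232 bases, at percentile 55.1. The other 4 lay between percentiles 70.3 and 88.9. By this scale Lepr- HSC held 56.5 ± 13.9 of Limd2 and 7.83 ± 0.510 of Rabgap1l, so that the gene that was lower in Lepr- HSC was still the more abundant one.

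Over all genes, 0.103% passed an edgeR quasi-likelihood test at an adjusted p of 0.05 in the Lepr contrast of HSC and 0.200% in that of MPP. These contrasts chose the 6 genes, so no test result is given for the 6 in them. The test of whether Lepr effects differ between the populations, the effect in HSC minus that in MPP, passed for 0 of 16509 genes (0.00%) by edgeR and 529 had an unadjusted p under 0.05. It passed for 19 genes by DESeq2 and for 0 by limma-voom. The fitted values for the 6 genes were 1.45 ± 0.35 for Mettl7a1, 1.44 ± 0.34 for Plppr3, 1.30 ± 0.39 for Tmem71, 1.24 ± 0.28 for Nkx2-3, 0.79 ± 0.24 for Limd2 and -1.03 ± 0.23 for Rabgap1l on the log2 scale, all of the sign that their choice implies. That the 6 genes changed in HSC alone is therefore a description of how they were picked. In MPP the fitted value had the same sign as in HSC for Limd2, Nkx2-3 and Tmem71, the opposite sign for Mettl7a1 and Plppr3, and was 0.00 for Rabgap1l.

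**Figure D2:**
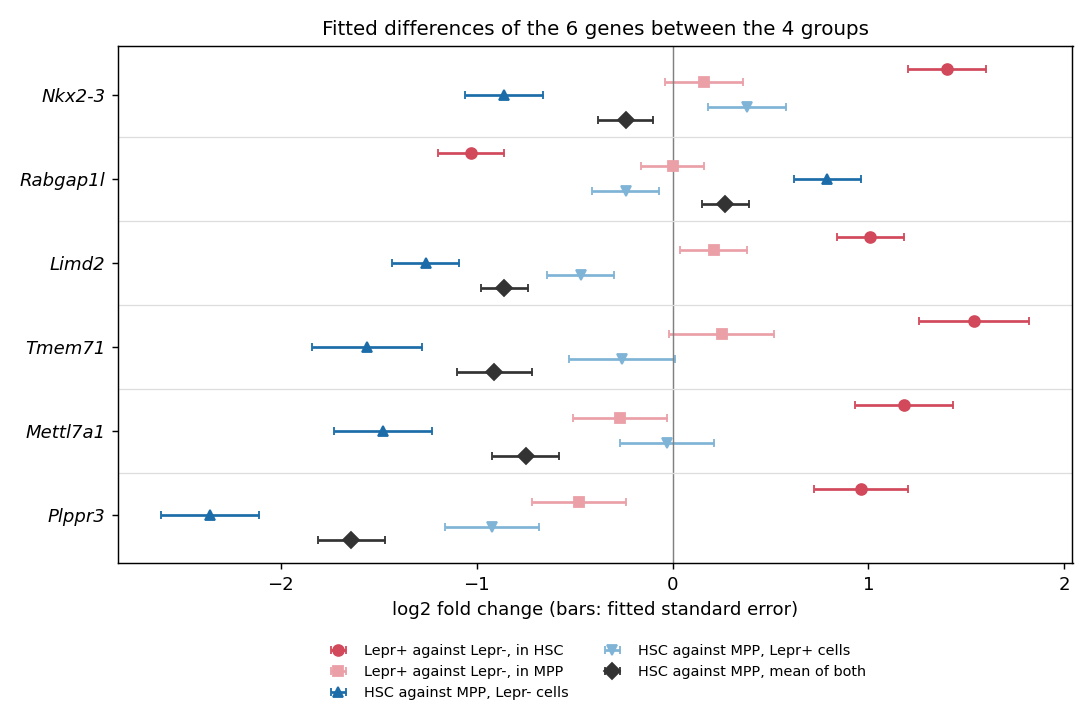
Fitted log2 fold changes (horizontal axis, bars the fitted standard error) of the 6 genes in 5 contrasts, marked by colour and shape. The Lepr contrast in HSC lies farthest to the right for 5 genes and to the left for Rabgap1l, the Lepr contrast in MPP lies between -0.48 and 0.25, and the averaged HSC against MPP contrast runs from -1.64 for Plppr3 to 0.27 for Rabgap1l.

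Averaged over Lepr status, 4 of the 6 genes passed as lower in HSC than in MPP. The choice did not use this contrast, but the Lepr- HSC libraries, in which the 6 stood apart, enter the average. Plppr3 fell by 1.64 ± 0.17 on the log2 scale, 3.12-fold lower in HSC (edgeR adjusted p = 8.39e-06, HSC higher in 0 of 10 same-numbered pairs). Limd2 fell by 0.86 ± 0.12, 1.82-fold (adjusted p = 0.000132, HSC higher in 0 of 10 pairs). Tmem71 fell by 0.91 ± 0.19, 1.88-fold (adjusted p = 0.00677, 1 of 10 pairs), and Mettl7a1 by 0.75 ± 0.17, 1.69-fold (adjusted p = 0.0121, 3 of 10 pairs). Nkx2-3 and Rabgap1l did not pass, with log2 fold changes of -0.24 ± 0.14 (adjusted p = 0.437) and 0.27 ± 0.12 (adjusted p = 0.233). Of all genes tested 4.89% passed, 2.50% higher and 2.40% lower in HSC. Because 5 of the 6 were low in Lepr- HSC, which enters the average, nothing is read from the 4 of 6.

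The average joins unlike parts. Against Lepr- MPP, Lepr- HSC differed by -2.36 ± 0.25 for Plppr3, -1.56 ± 0.28 for Tmem71, -1.48 ± 0.25 for Mettl7a1, -1.26 ± 0.17 for Limd2, -0.86 ± 0.20 for Nkx2-3 and 0.79 ± 0.17 for Rabgap1l on the log2 scale. Against Lepr+ MPP, Lepr+ HSC differed by -0.92 ± 0.24 for Plppr3, -0.47 ± 0.17 for Limd2, -0.26 ± 0.27 for Tmem71, -0.03 ± 0.24 for Mettl7a1, 0.38 ± 0.20 for Nkx2-3 and -0.24 ± 0.17 for Rabgap1l. These values share libraries with the contrasts that chose the genes and carry no test. For all 4 genes that passed, the difference was larger among Lepr- than among Lepr+ cells, and for Plppr3 and Limd2 HSC was lower in 5 of 5 pairs on both sides of the Lepr sort. The call for Mettl7a1 was lost when replicate 2, 3 or 4 was left out of all groups (adjusted p = 0.111, 0.0637 and 0.0588), and that for Rabgap1l was gained without Lepr+ MPP replicate 5 (0.36, adjusted p = 0.0413). Within the June libraries the values were -1.48 for Plppr3 (adjusted p = 0.00874), -0.82 for Limd2 (0.0557), -0.76 for Tmem71 (0.158) and -0.63 for Mettl7a1 (0.386), and within the July libraries -1.93 (0.0966), -0.95 (0.181), -1.14 (0.295) and -0.96 (0.305) in the same order. All 4 kept their direction in both months, and with fewer libraries in each month Plppr3 in June was the 1 that passed.

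Across the 20 libraries the 5 genes that were lower in Lepr- HSC varied together. Pearson r of log2 CPM for their 10 pairs ran from 0.53, Nkx2-3 with Plppr3, to 0.85, Limd2 with Mettl7a1, with a median of 0.80. Rabgap1l ran opposite to all 5, with r from -0.83 to -0.64. The choice of the genes fixes much of this, because all share the low or high Lepr- HSC group. Deviations from the 4 group means, which the choice by group did not use, gave r from -0.04 to 0.53 with a median of 0.42 for the 10 pairs, and 8 of the 10 were above 0. Tmem71 with Plppr3 was the highest of these at 0.53, and Limd2 with Tmem71 and with Plppr3 the lowest at -0.04 each. For Rabgap1l the deviations gave -0.42 with Tmem71, -0.37 with Plppr3, 0.04 with Mettl7a1, 0.17 with Limd2 and 0.20 with Nkx2-3, so its opposite course did not hold within groups for 3 of the 5. Libraries of 1 replicate number share a date, and in each library the 6 values share its depth and preparation. The share of pairs above 0 among other genes is not given, so nothing is read from the 8 of 10.

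**Figure D3:**
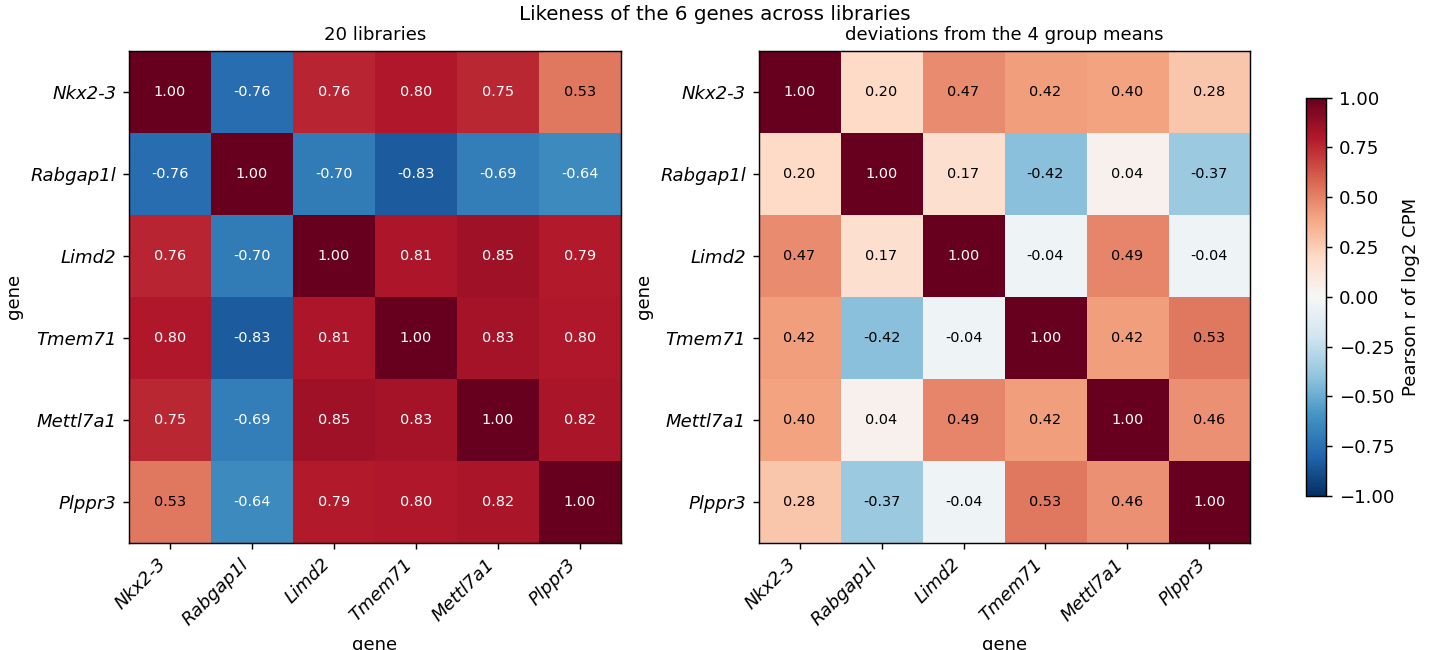
Pearson r of log2 CPM between each pair of the 6 genes, over 20 libraries (left) and over deviations from the 4 group means (right), on 1 colour scale from -1 to 1. Pairs without Rabgap1l run from 0.53 to 0.85 on the left and from -0.04 to 0.53 on the right.

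The genes whose pattern was most like each of the 6 were sought among 10127 genes of at least 5 CPM on average, by Pearson r of log2 CPM over the 20 libraries. For Limd2 they were Hlf, a transcription factor of stem cells (r = 0.97), Dkkl1, named for its likeness to the Dickkopf family (0.96), and Il2rg, the common gamma chain of cytokine receptors (0.94). Over deviations from group means r was 0.75, 0.83 and 0.60. Here and for the genes below, the deviations are part of the r used for ranking, so they are no separate check. Hlf had group levels of 153.7 ± 37.3, 325.5 ± 46.8, 410.5 ± 55.1 and 504.3 ± 37.7 CPM, which is the order seen for Limd2. Its fitted log2 fold changes, 1.08 ± 0.17 for Lepr+ over Lepr- HSC and -1.02 ± 0.12 for HSC over MPP on average, follow from its choice by likeness to Limd2 and carry no test.

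Nceh1, a hydrolase of cholesterol esters, was the gene most like both Nkx2-3 (r = 0.89, deviations 0.69) and Tmem71 (0.90, deviations 0.52). Its group levels were 71.0 ± 21.0, 163.6 ± 22.4, 164.1 ± 10.9 and 162.2 ± 21.6 CPM, so that all but Lepr- HSC had nearly equal means. Gimap1, a GTPase of lymphocytes (r = 0.86), and Vegfc, a growth factor of lymphatic vessels (0.85), followed for Nkx2-3, and Hhex and Unc93b1, a chaperone of endosomal Toll-like receptors, for Tmem71 (0.88 each). For Mettl7a1 the nearest were Limd2, Pglyrp1, a peptidoglycan recognition protein, and the G protein subunit Gng2 (0.85 each). For Plppr3 they were Gng2 (0.92), Tmem173, which encodes the DNA-sensing adaptor STING (0.91), and Wfdc17 (0.91). Tmem173 had group levels of 49.3 ± 13.2, 78.5 ± 7.11, 166.8 ± 4.66 and 159.4 ± 33.5 CPM. Rabgap1l had weaker likenesses, to the histone gene Hist1h4i (0.83), the growth factor gene Tgfb1 (0.79) and Psmc3ip, which takes part in meiotic recombination (0.75). Tgfb1 had group levels of 48.9 ± 9.59, 18.5 ± 5.06, 18.9 ± 7.34 and 16.4 ± 5.85 CPM.

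Relatives of each gene were read from gene lists that leave out the 6. Among 42 NKL homeobox genes, the class of Nkx2-3, 4 could be tested, and Hhex, a factor of early blood and endothelial development, was lower in HSC than in MPP on average (-0.60 ± 0.09, adjusted p = 0.000202, 0 of 10 pairs higher). Hhex had group levels of 110.7 ± 12.8, 168.4 ± 21.0, 209.3 ± 8.30 and 204.1 ± 5.50 CPM. Its Lepr contrast in HSC had a log2 fold change of 0.61 ± 0.12 that did not pass without the replicate block (adjusted p = 0.0685) and passed with it (adjusted p = 0.00772). Hhex was also among the 3 genes most like Tmem71 over the same libraries, so these differences are no result apart from that likeness. The median of the 4 was -0.40 in the averaged contrast against -0.02 over all genes.

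Of 38 TBC-domain proteins, the class of Rabgap1l, 0 were higher and 3 were lower in HSC on average, where 2.50% of all genes were higher and 2.40% lower. The median log2 fold change of the list was -0.19 against -0.02 over all genes. The 3 were Sgsm1 (-2.15 ± 0.59, adjusted p = 0.0382), Tbc1d10c (-0.65 ± 0.17, adjusted p = 0.0315) and Tbc1d17 (-0.53 ± 0.15, adjusted p = 0.0424). None of the 38 passed in either Lepr contrast by edgeR, with medians of 0.05 in HSC and 0.02 in MPP. Sgsm1 averaged 5.03 ± 3.50, 11.3 ± 11.2, 33.8 ± 7.45 and 33.5 ± 12.4 CPM in the 4 groups.

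Of 26 tested genes for LIM adaptors and the complex of integrin-linked kinase, the setting in which Limd2 is studied, 3 were higher and 1 was lower in HSC on average. Fhl1, a protein made of LIM domains, was the largest at 2.23 ± 0.18 (adjusted p = 7.85e-07, 10 of 10 pairs higher). Lims1, the adaptor PINCH1, was higher by 0.79 ± 0.17 (adjusted p = 0.00817) and Csrp1 by 0.63 ± 0.12 (adjusted p = 0.0023), whereas Parvg, the parvin of blood cells, fell by 0.91 ± 0.15 (adjusted p = 0.000903). With the replicate block 6 were higher and 1 was lower, and over all 16509 genes the numbers went from 412 higher and 396 lower to 1109 and 853. The median of the list was -0.03, close to that of all genes, -0.02.

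Lists for the lipid side held less. Of 15 tested lipid droplet proteins and METTL7 relatives, 0 passed in the averaged contrast by edgeR, and with the replicate block 1 was higher and 2 were lower. Of 18 tested PLPPR proteins, lipid phosphate phosphatases and lysophospholipid receptors, 0 passed there, with 1 higher and 1 lower with the block. One gene of that list passed in the Lepr contrast of MPP, Plpp3, a phosphatase of lysophosphatidic acid, at 3.07 ± 0.45 (adjusted p = 0.00796), from 7.11 ± 1.80 CPM in Lepr- MPP to 60.0 ± 32.8 CPM in Lepr+ MPP. In those Lepr+ MPP libraries the summed level of 14 stromal markers ran from 152.4 to 3320 CPM, against 46.1 to 75.7 CPM in Lepr- MPP, and its part in the Plpp3 difference was not tested.

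Of 24 nearest protein-coding genes, 17 could be tested and 1 passed in the averaged contrast, Palm, which lies 39579 bases from Plppr3 (-1.27 ± 0.28, adjusted p = 0.00883). Palm encodes paralemmin, a membrane-linked protein of cell processes, and averaged 10.6 ± 1.16, 6.37 ± 3.51, 21.6 ± 8.84 and 18.2 ± 6.54 CPM in the 4 groups. None of the 17 passed in the Lepr contrasts by edgeR, with medians of 0.08 in HSC and -0.04 in MPP.

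Plppr3 shares exon bases with a gene at each of its ends, both on the opposite strand, and the libraries keep no strand. The overlap is 251 bases with Ptbp1 (chr10:79854427-79864771), 5.76% of its exons, and 159 bases with Prtn3 (chr10:79874476-79883174), 3.65%. Ptbp1 encodes a splicing regulator, and Prtn3 a serine protease of granulocyte precursors. Prtn3 averaged 116.8 ± 51.6, 201.1 ± 105.3, 255.0 ± 83.5 and 278.5 ± 126.5 CPM, which is the same order for the HSC groups and the reverse for the MPP groups. Its averaged contrast was -0.80 ± 0.27 and did not pass (adjusted p = 0.104). Ptbp1 had 311.8 ± 55.3, 244.8 ± 42.1, 283.2 ± 23.9 and 242.3 ± 19.1 CPM in the same order of groups. Over deviations from group means, Plppr3 had r = -0.04 with Prtn3 and -0.03 with Ptbp1, and over 20 libraries 0.58 and -0.26. How many counts of Plppr3 came from reads of these genes cannot be told from counts per gene. Elane, the protease gene next to Prtn3, averaged 39.1 ± 55.0, 78.3 ± 133.8, 15.7 ± 18.1 and 24.1 ± 44.9 CPM in that order, with an SD above the mean in every group.

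**Figure D4:**
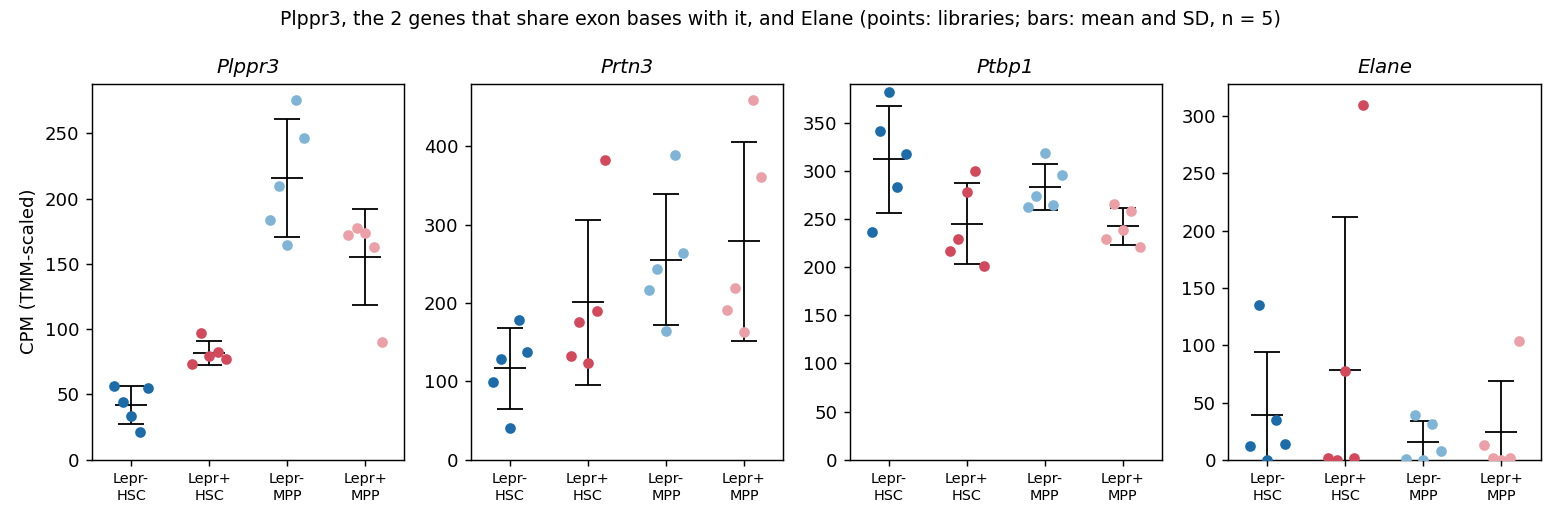
Levels of Plppr3, of Prtn3 and Ptbp1, which share exon bases with it, and of Elane, in CPM (vertical axes from 0) by library, with group mean and SD of 5. Plppr3 is higher in 9 of the 10 MPP libraries than in any HSC library, whereas Prtn3, Ptbp1 and Elane overlap between HSC and MPP.

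The span of Rabgap1l covers 13 other gene models, and only the antisense Gm36975 shares exon bases with it (166 bases, 0.715% of its exons, 303 counts in the 20 libraries together). No stretch of 50 bases of Nkx2-3, Limd2 or Tmem71 occurs in another gene. Of Rabgap1l 1.10% of such stretches do and of Plppr3 4.81%.

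Markers of other cells also differed between the HSC groups that chose the 6 genes. The summed level of 7 megakaryocyte markers ran from 2631 to 5477 CPM (median 4042) in Lepr- HSC and from 1429 to 2789 (median 2281) in Lepr+ HSC, against 546 to 1156 CPM in the MPP libraries. That of 9 erythroid markers ran from 284.8 to 1171 CPM in Lepr- HSC and from 76.9 to 266.5 CPM in Lepr+ HSC, without overlap, and from 160.3 to 854.2 CPM in Lepr- MPP and 31.9 to 235.5 CPM in Lepr+ MPP. The sum of 12 T and NK cell markers ran from 176.4 to 324.9 CPM in Lepr- HSC and from 112.3 to 189.9 CPM in Lepr+ HSC, with Cd3g and Cd8a at 0 counts in both. The sum of 10 stem cell markers, Hlf among them, went from 823.4 to 1096 CPM in Lepr- HSC and from 1380 to 1511 CPM in Lepr+ HSC, again without overlap. Of the other lists, those for stromal, endothelial, monocyte and macrophage, and B and plasma cells were higher at the median in Lepr+ HSC. Lower medians in Lepr+ HSC were seen for neutrophil (61.9 against 28.9 CPM), dendritic (22.4 against 12.9) and mast and basophil markers (9.51 against 5.09). The ranges of all these lists overlapped. For the lists with lower medians, the highest sum was nonetheless that of a Lepr+ library. With Lepr- HSC first, it was 302.2 against 558.4 CPM (neutrophil), 35.8 against 36.6 (dendritic) and 26.1 against 298.5 (mast and basophil). Every neutrophil marker had its higher group mean in Lepr+ HSC, such as Elane (39.1 against 78.3) and Mpo (33.4 against 77.8). Prss34 (5.64 against 42.9), Mcpt8 and Ms4a2 were also higher there by mean, whereas Cpa3 and Fcer1a were lower. The sum of 14 stromal markers ran from 16.2 to 216.9 CPM in Lepr- HSC, with Ebf3 at 0 counts, and from 39.2 to 194.6 CPM in Lepr+ HSC. Among them Cxcl12 averaged 1.80 and 30.8 CPM and Adipoq 0.00675 and 3.60 CPM in Lepr- and Lepr+ HSC. Col1a1 (23.8 and 18.8 CPM), Lum (1.22 and 0.817 CPM) and Kitl (0.310 and 0.267 CPM) went the other way. The sum of 10 endothelial markers ran from 271.9 to 466.1 CPM (median 365.0) in Lepr- HSC and from 404.6 to 554.9 CPM (median 439.0) in Lepr+ HSC. The sum of 10 B and plasma cell markers ran from 43.5 to 109.8 CPM (median 67.5) in Lepr- HSC. In Lepr+ HSC it ran from 51.1 to 644.0 CPM (median 69.6). Among them Igkc and Jchain averaged 0.261 and 1.08 CPM in Lepr- HSC and 106.6 and 48.1 CPM in Lepr+ HSC. Cd79b and Pax5 went the other way, from 65.8 and 0.0514 CPM to 54.1 and 0.0313 CPM. The part of all these in the levels of the 6 genes was not tested.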

How the data were processed

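Bone marrow cells of 20 samples, 5 in each of 4 sorted groups, were measured by RNA-seq. The authors deposited raw read-pair counts for 55573 genes a library, with 5 closing lines for pairs given to no gene (21.4% to 38.7% of pairs), which stayed out of library sizes and tests. cDNA was made with SMART-Seq v4 and libraries with Nextera XT, without strand, per the labels' protocols and design text. FastQC 0.11.8, cutadapt 2.1, STAR 2.7.1a, HTSeq 0.11.2, DESeq2 without a version, and GRCm38 are named in the submitters' processing notes. The HTSeq counting mode is not given in the sources used here, so reads in overlapping or near-identical genes are uncertain. No column of another sample was present (0), and no pair of libraries was identical.

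Symbols, positions and exon lengths came from GENCODE M21, which matched 55180 identifiers. CPM used library sizes scaled by edgeR's TMM factors. One edgeR 4.0.16 quasi-likelihood fit (R 4.3.3) of all 20 libraries with group as the only term, after filterByExpr (minimum count 10, minimum total 15), gave fold changes with SE and two-sided p-values, adjusted by Benjamini-Hochberg over 16509 genes with a threshold of 0.05. The biological coefficient of variation was 0.747. Correlations used log2 CPM with a prior count of 2. The code was tested on simulated counts with less spread than these libraries and changes planted only between HSC and MPP. The Lepr contrasts were not checked in that test.

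The replicate numbers pair the libraries, since the design text gives 2 mice for each replicate and the files of 1 number share a date. Deviations from group means correlated with a median r of 0.264 (-0.065 to 0.562) in 30 same-number pairs and -0.086 in 120 others, and 15 of 20 libraries were closest to one of their own number. Alternatives were the replicate block, DESeq2 1.42.0, limma-voom (limma 3.58.1), RLE scaling, no filter, the libraries of each month in the file names, and leaving out libraries or replicate numbers. The 6 genes and the lists were chosen with earlier results of these data known. Named genes were the 6, the 3 most like each, neighbours and overlapping genes, up to 4 genes past the threshold in each list, and checks of the sort.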

Additional observations from a re-analysis of the deposited data

Results flagged for a closer look

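Of 24 sets of 5 libraries examined, 1 for each of the 6 genes in each group, 2 had a library set apart from the rest, its gap to the nearest divided by the group's range being above 0.71. Chance sets apart about 1 in 20 groups. Nkx2-3 in Lepr+ MPP replicate 4 was at 42.85 CPM, below the other 4, with a gap of 0.73 of the range. Plppr3 in Lepr+ MPP replicate 5 was at 89.88 CPM, also below the other 4, with a gap of 0.839 of the range.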

How the results depend on the processing

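In the averaged HSC against MPP contrast, 186 of 198 values of the 6 genes (33 alternatives each) kept their direction and their side of the threshold and 0 reversed. Of the others 10 no longer passed, those of Limd2, Tmem71 and Mettl7a1 in June and in July, Plppr3 in July and Mettl7a1 without replicate 2, 3 or 4, and 2 came to pass, Rabgap1l without Lepr+ MPP replicate 5 (adjusted p = 0.0413) and with the 3 libraries least like their groups left out (0.0385). The replicate block changed no call among the 6: adjusted p-values with it were 2.16e-05 for Plppr3, 2.71e-05 for Limd2, 0.00248 for Tmem71, 0.00573 for Mettl7a1, 0.0938 for Rabgap1l and 0.26 for Nkx2-3.

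Counts over all genes moved more. The averaged contrast called 808 genes, 1360 by DESeq2, 1962 with the replicate block, 235 in June and 24 in July, 576 to 1073 without 1 library, and 319 to 879 without 1 replicate number (319 without 2, 370 without 3). The Lepr contrast in HSC called 17, 181 by DESeq2, 169 with the block, 0 in June, 0 in July, 8 without the 3 libraries least like their groups, 0 to 24 without 1 library (of Lepr- HSC, leaving out replicate 2 or 3 gave 0, replicate 5 gave 3 and replicate 4 gave 11; of Lepr+ HSC, leaving out replicate 5 gave 0) and 0 to 15 without 1 number (0 without 2, 3, 4 or 5). At an unadjusted p under 0.05 June had 1031 genes and July 426. The Lepr contrast in MPP called 33, 213 by DESeq2, 59 by limma-voom, 17 with the block, 0 in June, 0 in July and 0 without the 3 libraries, 4 to 49 without 1 library (16 and 20 without Lepr- HSC replicate 1 and 4, and 4 to 15 without any 1 MPP library other than Lepr+ MPP replicate 1) and 0 to 12 without 1 number. At an unadjusted p under 0.05 June had 556 and July 367. The difference between the Lepr effects called 0, and 19 by DESeq2. Fewer libraries enter the fits by month. The other causes were not tested.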
